A study of Mus musculus with 18 samples.

Results

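UN-SCC679 is a mouse lung cancer line from A/J mice that the labels call lung squamous carcinoma (LUSC), and 6 of the 18 RNA libraries of the series come from cells of this line that carry a vector without an insert. They were chosen by their titles: 3 libraries of cells with the empty TPLKO vector treated with doxycycline (TPLKO empty), against 3 libraries of cells with the empty pLENTI6 vector, for which no treatment is given (pLENTI6 empty). The study altered the kinase DSTYK, and these are the controls of its knockdown and of its overexpression experiment in UN-SCC679. The phenotype labels (DSTYK downregulation and DSTYK overexpression) name the experiment and not the arm, so the titles define the groups. Vector, doxycycline and experiment change together between both populations and cannot be told apart, nor can time in culture, which the labels do not give. The deposited tables use a different name stem for the cells of each population, and what this difference marks is not given in the sources used here. The labels also do not say whether a population is 1 clone or a pool, or whether each replicate was a culture of its own; the p-values therefore measure only library-to-library spread, possibly technical.

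Empty-vector cells are used to account for what infection, selection and an inducing drug do to a line, so that an altered arm can be set against cells that went through the same steps. Doxycycline, the tetracycline that switches inducible vectors on, is also known to slow protein synthesis in mitochondria. Cultured tumour lines hold variation among their cells. Populations grown apart from one line can come to differ in gene expression without any change of a chosen target. Whether that happened here was not tested.

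The 6 libraries held between 40565270 and 46371244 estimated counts. Libraries of a group differed by little: the coefficient of variation from edgeR's common dispersion was 4.56%. The first pLENTI6 empty library stood apart from the others of its group, with a mean chi-square per gene of 11.2 and 12.7 against them, where the 10 other pairs of libraries of a group in UN-SCC679 gave values between 1.90 and 4.82. It differed from them by transcript length. Tested genes were divided into 10 classes of equal size by transcript length. In the class of shortest transcripts its median deviation on the log2 scale was 0.19, against 0.11 and 0.08 in the other pLENTI6 empty libraries, and in the class of longest transcripts it was -0.21, against -0.05 and -0.04.

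Dstyk itself, on chromosome 1, was measured in each library first. It had 36.1, 36.0 and 37.7 CPM (read counts scaled for library size by TMM) in TPLKO empty libraries, against 29.0, 30.6 and 31.9 CPM in pLENTI6 empty libraries. The groups did not overlap, and the log2 change of 0.26 (SE 0.044) passed edgeR's quasi-likelihood test with an adjusted p of 4.65e-04. The difference is small beside those below, and subtracting the median log2 change of genes in the same length class left 0.081. In limma on log2(TPM + 1) the adjusted p was 0.0599. Among all tested genes 68.7% passed edgeR's test at an adjusted p under 0.05, and 73.3% had groups that did not overlap. Log2 changes of all tested genes had a median size of 0.32.

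A gene is called here at an adjusted p under 0.05 over the 14080 genes tested. Between TPLKO empty and pLENTI6 empty 9675 genes were called, 68.7% of those tested, of which 4688 were higher and 4987 lower in TPLKO empty. Most of these differences were small: 62.7% of called genes differed by under 1.5-fold, and called log2 changes had a median size of 0.43. Called genes that differed by at least 2-fold numbered 2030, 14.4% of those tested, with 886 higher and 1144 lower. The libraries of both groups did not overlap in 73.3% of tested genes. Without the first pLENTI6 empty library 9666 genes were called and 2111 of them differed by at least 2-fold. In the principal component plot of all 12 UN-SCC679 libraries, the first component, with 60.2% of the variance, separated both TPLKO groups from both pLENTI6 groups.

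**Figure D1:**
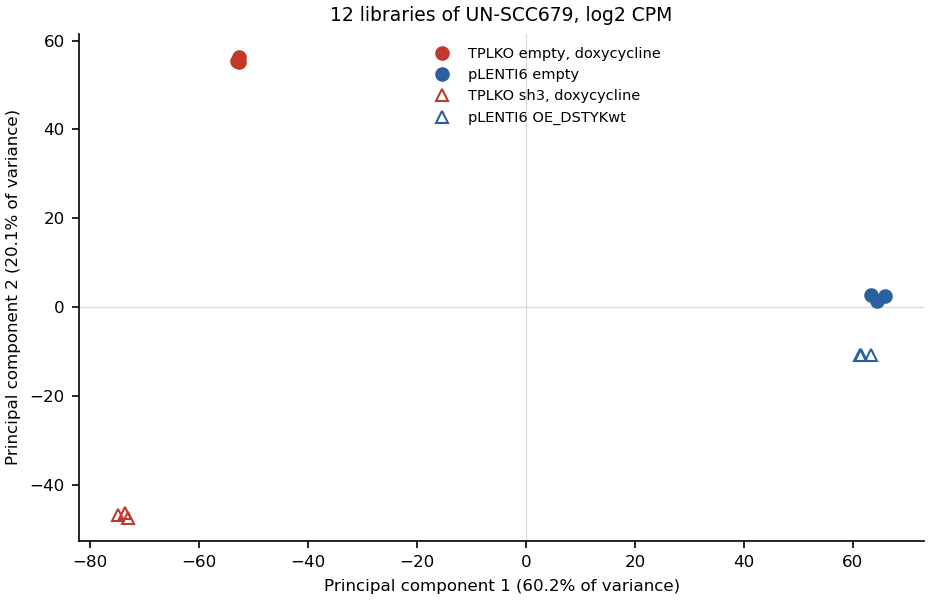
Principal components of log2 CPM over 12 UN-SCC679 libraries (horizontal axis, component 1; vertical axis, component 2; each point is 1 library, with 3 per group). TPLKO libraries lie at -52.6 or below on component 1 and pLENTI6 libraries at 61.4 or above, while component 2 separates TPLKO empty from TPLKO sh3.

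Matrix genes were among the large rises. Postn, which encodes the secreted matrix protein periostin, had 3884 counts over the TPLKO empty libraries, against 2 counts over the pLENTI6 empty libraries. This is a ratio of 1987 with a 95% exact interval from counting error alone of 550 to 16420. Col1a1, which encodes the alpha 1 chain of type I collagen, had 519, 510 and 525 CPM in TPLKO empty libraries, against 7.23, 6.96 and 7.59 CPM in pLENTI6 empty libraries. That is 71.4-fold higher in TPLKO empty (log2 change 6.16, SE 0.042, adjusted p = 3.83e-13, edgeR). Its partner chain Col1a2 had 11339, 11547 and 11698 CPM in TPLKO empty libraries, against 4011, 4080 and 4162 CPM in pLENTI6 empty libraries, a 2.82-fold difference. Per length, the pLENTI6 empty cells held 2.29 TPM of Col1a1 beside 1362 TPM of Col1a2, and the TPLKO empty cells 151 TPM beside 3706 TPM.

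Collagens form the scaffold of the extracellular matrix: chains I, III and V make fibrils, chains IV make basement membrane sheets, and chains VI make beaded filaments. Of 25 collagen chain genes tested, 15 were called higher and 6 lower in TPLKO empty, against 33.3% of all tested genes higher and 35.4% lower, and the list's median log2 change was 1.15, against -0.01 over all tested genes and 0.64 for the list in limma on log2(TPM + 1), which understates changes of low genes. At least 2-fold differences were found for 13 higher and 3 lower genes. The shares of all tested genes, 33.3% higher and 35.4% lower, are the background for every list count below. Among the fibril chains, Col5a1 averaged 1158 ± 15.1 CPM in TPLKO empty and 187 ± 2.50 CPM in pLENTI6 empty (SD, n = 3 each). Col5a2 averaged 61.2 ± 1.22 CPM in TPLKO empty and 4.77 ± 0.525 CPM in pLENTI6 empty, and Col3a1 3333 ± 51.4 and 1282 ± 15.1 CPM in the same order. The basement membrane chains Col4a1, Col4a2 and Col4a5 rose with log2 changes of 1.23, 1.22 and 1.28.

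Not all chains went this way. Col6a1 had 27.4, 27.6 and 27.9 CPM in TPLKO empty libraries, against 96.0, 98.0 and 99.0 CPM in pLENTI6 empty libraries, which is 3.53-fold lower in TPLKO empty. Col6a2, which assembles with it, fell with a log2 change of -1.71, while Col6a3, at under 1 CPM in every library, rose with a log2 change of 2.30. Col11a1 fell by 5.61 on the log2 scale from a level under 1 CPM. Col4a3 and Col4a4, chains of a specialised basement membrane, had log2 changes of 0.04 and 0.06 and were not called.

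Genes that process the matrix were among the larger rises as well. Tll1, a protease of the family that trims procollagens, averaged 35.1 ± 1.38 CPM in TPLKO empty and 3.31 ± 0.217 CPM in pLENTI6 empty. P4ha3, a subunit of a collagen prolyl hydroxylase, averaged 14.9 ± 0.849 CPM in TPLKO empty and 2.09 ± 0.165 CPM in pLENTI6 empty. Sulf2, which removes sulfate from heparan sulfate chains, was 39.0-fold higher in TPLKO empty. Of 30 matrix metalloproteinase, ADAMTS and inhibitor genes tested, 13 were called higher and 7 lower. The list's median log2 change was 0.10, below its spread between libraries of 0.11. The 8 that differed by at least 2-fold were all higher. Of all 14080 tested genes, 886 were called at least 2-fold higher and 1144 lower. The 8 included the inhibitor Timp3, with 3953, 4011 and 3981 CPM in TPLKO empty libraries, against 1433, 1551 and 1564 CPM in pLENTI6 empty libraries, and the protease Mmp28 at 5.22-fold. The adhesive glycoprotein gene Thbs1 averaged 9718 ± 135 CPM in TPLKO empty and 2078 ± 157 CPM in pLENTI6 empty.

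Laminins and integrins, the basement membrane glycoproteins and the receptors that hold cells to them, went both ways. Of 28 tested, 11 were higher and 10 lower, against 33.3% and 35.4% of all tested genes, with a median log2 change of 0.01. Those that rose at least 2-fold included Lama5 and Lamb2, each with a log2 change of 1.37, and the collagen-binding integrins Itga1 (1.71) and Itga2 (1.59). Itgb4, the integrin of hemidesmosomes, fell by 1.94 and Itga7 by 1.62. Broader mesenchymal genes showed no common direction either, with 12 of 31 higher and 14 lower.

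**Figure D2:**
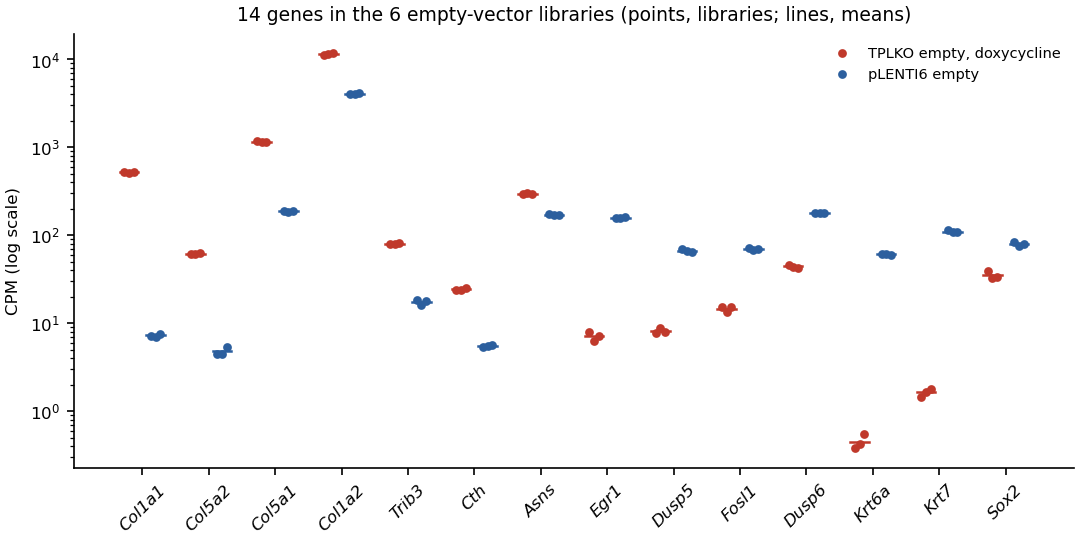
CPM on a log axis of 14 genes in the 6 empty-vector libraries; points are libraries, lines are group means, and TPLKO empty stands left of pLENTI6 empty for each gene. The collagen and ATF4 response genes shown are higher in TPLKO empty, and the immediate-early, ERK feedback, keratin and Sox2 values are lower. Groups do not overlap for any of the 14 genes, which were picked with their values known. Among all tested genes 73.3% do not overlap.

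Immediate-early genes and feedback inhibitors of ERK signalling were mostly lower in TPLKO empty. The ERK kinases are activated by growth factor receptors through RAS and RAF; they switch on transcription factors such as FOS and EGR1 within minutes, and also the phosphatases (DUSP) and SPRY proteins that shut the pathway down. Of 38 such genes tested, 33 were called lower and 2 higher in TPLKO empty. The median log2 change was -1.20, and 22 genes were at least 2-fold lower. Phosphorylated ERK was not measured in these data.

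Among the transcription factors, Egr1 had 7.98, 6.24 and 7.07 CPM in TPLKO empty libraries, against 157, 157 and 160 CPM in pLENTI6 empty libraries. It was 22.3-fold lower in TPLKO empty (log2 change -4.48, SE 0.061, adjusted p = 2.62e-11, edgeR). Egr3 averaged 2.37 ± 0.332 CPM in TPLKO empty and 30.8 ± 0.199 CPM in pLENTI6 empty, and the AP-1 member Fosl1 14.7 ± 1.02 and 69.5 ± 1.32 CPM. Fos, Fosb and Junb fell with log2 changes of -2.38, -2.75 and -1.84. Smaller falls were found for Jun (-0.86) and Myc (-0.88), the growth regulator, with 115 ± 1.76 CPM in TPLKO empty and 212 ± 2.57 CPM in pLENTI6 empty.

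Among the inhibitors, Dusp5, a nuclear ERK phosphatase, had 7.64, 8.88 and 8.04 CPM in TPLKO empty libraries, against 68.9, 66.1 and 64.0 CPM in pLENTI6 empty libraries. Dusp6, the cytoplasmic ERK phosphatase, had 46.2, 43.7 and 42.5 CPM in TPLKO empty libraries, against 180, 178 and 182 CPM in pLENTI6 empty libraries. Both genes showed groups that were far apart, at 8.09-fold and 4.07-fold lower in TPLKO empty. Spry4 fell by 1.91 on the log2 scale, Dusp4 by 1.63, and the ETS factors Etv1, Etv4 and Etv5, known ERK targets, by 2.51, 1.40 and 1.23. The exceptions were Fosl2, which rose with a log2 change of 0.32, and the stress-induced Atf3, which rose with 1.11. Spry1, Nr4a2 and Nr4a3 were not called, with log2 changes of -0.09, 0.05 and 0.63.

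Serum response factor binds the CArG box and drives many immediate-early genes together with ERK-activated partners. Of the 38 genes, 28 had a promoter sequence in the RefSeq table (GRCm38.p6), and a CArG box was found on either strand in the 250 bases before the start of 3 of them, 10.7%, against 1.46% of the 10181 tested genes with a promoter there. These 3 promoters are shown because they hold the motif in front of genes that fell. A further Egr2 promoter, with a CArG box in the stretch chr10:67537468-67537529, is not printed. A match is a description of the letters and not a shown binding site. The stretches are written 5′ to 3′ on the gene's strand with each CArG box in capitals, and lie at chr10:67537771-67537832 (Egr2, plus strand), chr19:53529037-53529098 (Dusp5, plus strand) and chr17:46556209-46556270 (Srf, minus strand).
Egr2: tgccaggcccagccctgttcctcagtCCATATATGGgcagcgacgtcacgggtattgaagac
Dusp5: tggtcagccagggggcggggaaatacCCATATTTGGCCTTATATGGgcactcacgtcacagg
Srf: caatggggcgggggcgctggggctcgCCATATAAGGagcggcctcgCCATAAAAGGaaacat
Srf and Dusp5 each show 2 boxes in this stretch, which in Dusp5 directly follow each other. Egr2, a low gene, fell by 3.34 on the log2 scale, Dusp5 by 3.02 and Srf, the gene of the factor itself, by 0.37.

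Genes of the ATF4 response were higher. ATF4 is a transcription factor that is translated when amino acids are short or when proteins misfold in the endoplasmic reticulum, and it raises genes for amino acid synthesis and uptake, for charging transfer RNA, and for feedback on the pathway. Of 29 tested genes, 23 were called higher and 2 lower in TPLKO empty, with a median log2 change of 0.59. Most changes were under 2-fold, and 4 genes were at least 2-fold higher: Fgf21, Trib3, Cth and Slc7a11. Trib3, a pseudokinase that feeds back on ATF4, had 79.2, 80.1 and 80.7 CPM in TPLKO empty libraries, against 18.5, 16.1 and 17.8 CPM in pLENTI6 empty libraries. Cth, which makes cysteine, was 4.41-fold higher in TPLKO empty.

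For amino acid supply, the asparagine synthetase gene Asns averaged 297 ± 3.35 CPM in TPLKO empty and 172 ± 3.51 CPM in pLENTI6 empty, and the cystine transporter gene Slc7a11 78.1 ± 1.84 and 30.0 ± 3.46 CPM. The transfer RNA synthetase genes Aars and Gars rose with log2 changes of 0.78 and 0.59. Atf4 transcripts rose with a log2 change of 0.21 and those of its partner Ddit3 with 0.81. Nupr1 and Psat1 were the members that fell, with -0.73 and -0.11.

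The composite site TGATGNAAT, which ATF4 binds with C/EBP factors, was found on either strand in the 250 bases before the start of 5 of the 24 members with a RefSeq promoter, 20.8%, against 0.540% of the 10181 tested genes with a promoter. All 5 are printed because they show that the same letters stand before genes that rose and before one that fell. Sequences are on the gene's strand with the site in capitals, and where the site lies on the other strand its complement appears. They lie at chr7:45615596-45615656 (Fgf21, minus), chr8:111033703-111033763 (Aars, plus), chr6:55037944-55038000 (Gars, plus), chr11:120643817-120643877 (Pycr1, minus) and chr7:126625547-126625607 (Nupr1, minus) of GRCm38.p6.
Fgf21: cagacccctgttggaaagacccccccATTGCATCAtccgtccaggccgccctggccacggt
Aars: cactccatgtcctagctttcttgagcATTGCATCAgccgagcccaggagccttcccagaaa
Gars: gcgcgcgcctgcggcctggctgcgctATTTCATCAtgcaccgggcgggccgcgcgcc
Pycr1: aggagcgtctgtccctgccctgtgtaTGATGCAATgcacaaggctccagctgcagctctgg
Nupr1: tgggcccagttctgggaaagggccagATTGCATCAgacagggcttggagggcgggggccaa
The log2 changes were 2.92 for Fgf21, a low gene, 0.78 for Aars, 0.59 for Gars, 0.59 for Pycr1, a proline synthesis enzyme, and -0.73 for Nupr1.

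The unfolded protein response, the wider programme of chaperones and degradation factors of the endoplasmic reticulum, moved in the same direction by less. Of 23 genes tested, 17 were called higher and 3 lower, with a median log2 change of 0.30, and none reached 2-fold. The chaperone gene Hspa5 averaged 3263 ± 43.2 CPM in TPLKO empty and 2207 ± 43.4 CPM in pLENTI6 empty. Herpud1, a degradation factor, rose with a log2 change of 0.83, and P4hb, a disulfide isomerase that is also a subunit of collagen prolyl hydroxylases, with 0.75. Syvn1, a ubiquitin ligase of the same pathway, fell by 0.52.

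**Figure D3:**
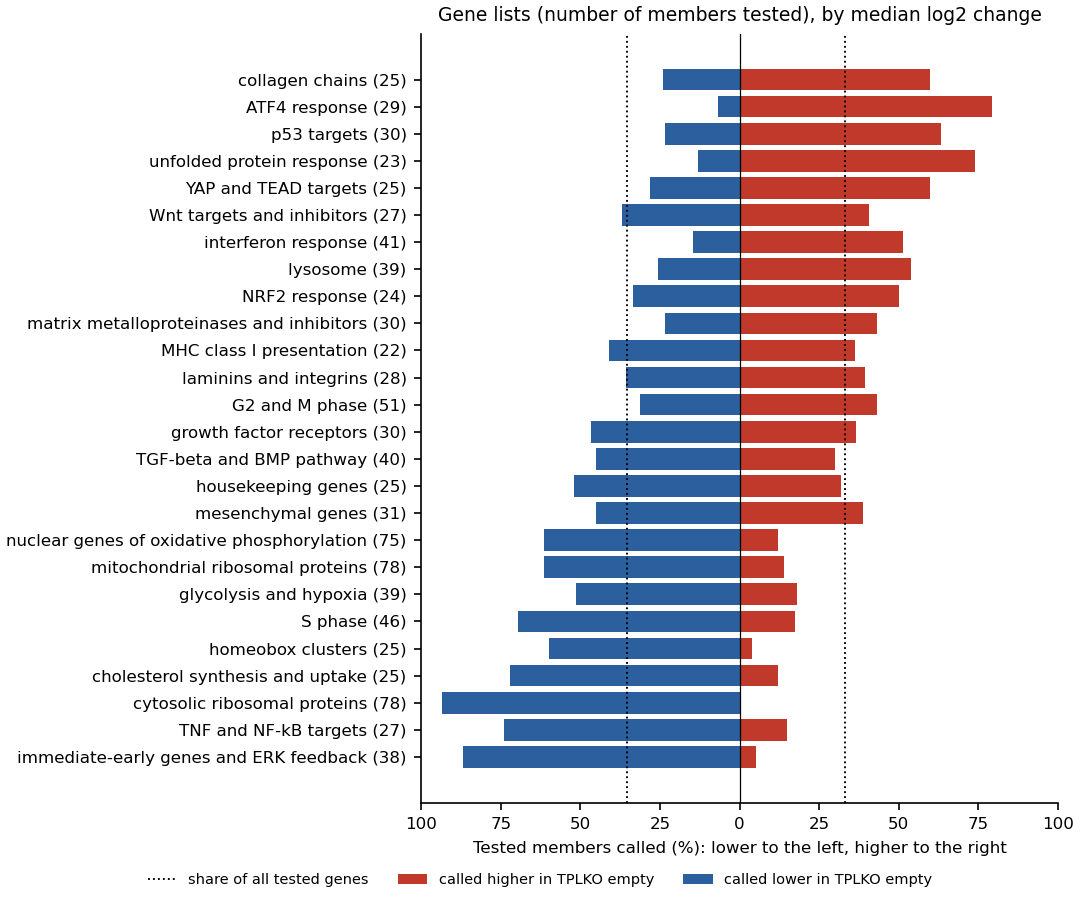
Share of tested members called higher (to the right) and lower (to the left) in TPLKO empty, for the gene lists with at least 20 tested members, with the number tested in brackets and lists ordered by median log2 change. Dotted lines mark the share of all tested genes, 33.3% higher and 35.4% lower; collagen chains stand at the top with a median of 1.15 and immediate-early and ERK feedback genes at the bottom with -1.20.

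Targets of TNF and NF-kB signalling, which drives inflammatory cytokines and its own inhibitors, were mostly lower: 20 of 27 tested genes fell and 4 rose, with a median log2 change of -0.53. Nfkb2, a subunit of the factor, averaged 58.3 ± 1.14 CPM in TPLKO empty and 151 ± 0.982 CPM in pLENTI6 empty. Csf1, the macrophage growth factor gene, had 950, 962 and 960 CPM in TPLKO empty libraries, against 1752, 1785 and 1817 CPM in pLENTI6 empty libraries. The chemokine gene Cxcl5 went the other way with a log2 change of 2.27. Interferon response genes were less uniform: 21 of 41 rose and 6 fell, with a median of 0.18, or 0.28 with each chromosome's median subtracted. Ifih1 and Ifi44 rose with log2 changes of 0.99 and 1.62, while Rsad2 fell by 3.81, to 0.12 CPM in TPLKO empty, against 1.68 CPM in pLENTI6 empty.

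In MHC class I presentation 8 of 22 genes rose and 9 fell, against 33.3% higher and 35.4% lower among all tested genes. The classical class I genes H2-K1 and H2-D1 fell with log2 changes of -0.94 and -0.77, while B2m, the light chain, rose with 0.27. The H2 genes share sequence with each other, so reads may be divided among them with error. They also lie on chromosome 17, where the median of all tested genes was -0.34.

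Keratins and epithelial genes differed in single genes more than as a group. Krt7, a simple-epithelium keratin, had 1.46, 1.65 and 1.79 CPM in TPLKO empty libraries, against 114, 108 and 108 CPM in pLENTI6 empty libraries, 67.4-fold lower in TPLKO empty. Krt6a, a keratin of squamous and wound epithelium, had 0.382, 0.418 and 0.546 CPM in TPLKO empty libraries, against 61.0, 61.3 and 60.3 CPM in pLENTI6 empty libraries, 135-fold lower. Over each group, Krt6a had 57 counts in TPLKO empty and 7952 in pLENTI6 empty, and Krt7 had 208 and 14360. Krt18 averaged 143 ± 3.96 CPM in TPLKO empty and 339 ± 12.3 CPM in pLENTI6 empty, and the tight junction gene Cldn6 8.11 ± 0.319 and 97.6 ± 2.13 CPM. Of 17 epithelial junction genes tested, 10 fell and 5 rose, with a median of -0.39. With only genes of mostly unique sequence that median was -0.11, and with each chromosome's median subtracted -0.15.

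Squamous markers gave a mixed picture for the label lung squamous carcinoma, with several defining ones absent or low in both populations. Of 12 defining markers, 4 had no counts in TPLKO empty and 4 in pLENTI6 empty, and Krt17, Dsg3 and Dsc3 were at 0 counts in every library. Trp63, the transcription factor that defines squamous cells, averaged 0.907 TPM in TPLKO empty and 1.27 TPM in pLENTI6 empty, and was not called. Krt5 had 0 counts in TPLKO empty and 2 counts in pLENTI6 empty. Sox2 was present, with 29.4 TPM in TPLKO empty and 69.3 TPM in pLENTI6 empty, and Pkp1 with 73.6 and 39.4 TPM. Krt6a had 0.339 TPM in TPLKO empty and 47.5 TPM in pLENTI6 empty. The keratin gene Krt14 went the other way, with 3.41 TPM in TPLKO empty and 0.779 TPM in pLENTI6 empty. It was called higher, with a log2 change of 2.29. A second, wider list of squamous genes also held Perp, a desmosome gene, with 166 CPM in TPLKO empty and 90.5 CPM in pLENTI6 empty, and Bnc1, a basal epithelial transcription factor gene, with 1.93 and 15.8 CPM. The epithelial surface genes Cdh1 and Epcam were under 0.1 TPM in both groups, beside Krt8 at 383 TPM in TPLKO empty and 519 TPM in pLENTI6 empty. Nkx2-1, a lung lineage factor usual in adenocarcinoma, stood at 42.1 and 28.1 TPM.

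Markers of other cell types were measured beside the matrix genes. The 8 leukocyte markers summed to between 0.479 and 0.674 TPM in TPLKO empty and between 0.421 and 0.464 TPM in pLENTI6 empty. A wider leukocyte list also held Cd14, with 5.31 CPM in TPLKO empty and 14.3 CPM in pLENTI6 empty, and Cd68, with 1.62 and 3.88 CPM, both called lower. Those of endothelium, 6 in number, summed to between 1.06 and 1.65 TPM in TPLKO empty and between 0.584 and 0.675 TPM in pLENTI6 empty, while Egfl7, of the wider endothelial list, fell to 1.07 CPM in TPLKO empty, against 4.77 CPM in pLENTI6 empty. The 8 fibroblast markers summed to between 3883 and 3994 TPM in TPLKO empty and between 1356 and 1464 TPM in pLENTI6 empty, but most of this was Col1a2 alone. Dcn had 17 counts in TPLKO empty and 13 in pLENTI6 empty, Lum 0 and 1, and Dpt none. Pi16 had 26 and 75 counts and was called lower. A wider fibroblast list also held Fbln2, with 112 CPM in TPLKO empty and 67.4 CPM in pLENTI6 empty, and Fbln1, with 0.385 and 0.0751 CPM. Both were called higher. Acta2, with 9.08 and 11.6 CPM, was called lower. Pdgfrb, a receptor of fibroblasts and pericytes, had 79.1 and 46.5 TPM, while Pdgfra had 1.93 and 4.58 TPM. In these bulk libraries, more cells of a kind and more RNA per cell cannot be told apart.

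The large falls also took in genes of varied function, named here for the size of their change. Calcb, a calcitonin gene-related peptide, averaged 0.296 ± 0.063 CPM in TPLKO empty and 32.7 ± 0.961 CPM in pLENTI6 empty. Sema7a, a membrane semaphorin, averaged 0.506 ± 0.135 and 35.3 ± 0.534 CPM in the same order. Rgs16, a regulator of G-protein signalling, was 44.6-fold lower in TPLKO empty and Crhr1, a peptide hormone receptor, 24.8-fold lower. The olfactory receptor gene Olfr318 and the rod transducin gene Gnat1, neither usual in lung, fell by 5.25 and 5.59 on the log2 scale. Vip, a neuropeptide gene, had 3 counts over the TPLKO empty libraries, against 379 counts over the pLENTI6 empty libraries, a ratio of 123 with a 95% exact counting interval of 41.9 to 601 for pLENTI6 empty over TPLKO empty. Eya2, a transcriptional coactivator gene, had 0 and 194 counts and was at least 63.2-fold lower in TPLKO empty against a floor of 3 counts over the group. Other large rises were in Cryab, a small heat shock protein gene (log2 change 3.80), Pmp22, a myelin protein gene (3.19), and Elavl2, a neuronal RNA-binding protein gene (3.06).

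Growth factor receptor genes, of which 30 were tested, rose in 11 cases and fell in 14. These are 36.7% and 46.7%, against 33.3% higher and 35.4% lower among all tested genes, the background for each list here. Fgfr1 averaged 100 ± 4.68 CPM in TPLKO empty and 239 ± 3.37 CPM in pLENTI6 empty, and Axl 677 ± 12.5 and 1099 ± 23.7 CPM. Ddr2, a receptor for fibrillar collagen, averaged 141 ± 2.04 CPM in TPLKO empty and 74.2 ± 6.41 CPM in pLENTI6 empty, and the neurotrophin receptor gene Ntrk3 rose with a log2 change of 3.65. Of 27 Wnt genes 11 rose and 10 fell; the receptor Fzd6 had 355, 355 and 352 CPM in TPLKO empty libraries, against 97.0, 102 and 102 CPM in pLENTI6 empty libraries. The ligand Wnt10a fell by 2.61. Of 40 genes of TGF-beta and BMP signalling 12 rose and 18 fell, with Id4, an inhibitor of basic helix-loop-helix factors, 7.25-fold lower in TPLKO empty. In the Notch list 7 of 16 rose and 5 fell, and the target Hey1 fell by 1.99. Homeobox cluster genes were mostly lower, with 15 of 25 down and 1 up, but by a median of only -0.27.

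Replication genes were lower by small amounts. Of 46 S phase genes tested 32 fell and 8 rose, with a median log2 change of -0.26 and none at 2-fold; Ung, a base repair enzyme, and Cdt1, a licensing factor, fell by 0.94 and 0.58. Genes of G2 and mitosis were divided, with 22 of 51 higher and 16 lower and a median of -0.00. Of 30 targets of p53, the damage-activated tumour suppressor, 19 rose and 7 fell, with a median of 0.41. The damage-induced gene Gadd45a rose with a log2 change of 1.34. The cell-cycle inhibitor Cdkn1a averaged 5.17 ± 0.608 CPM in TPLKO empty and 2.55 ± 0.133 CPM in pLENTI6 empty. Plk2, of the same list, fell, with 107 ± 0.775 CPM in TPLKO empty and 259 ± 2.42 CPM in pLENTI6 empty. Trp53 itself fell by 0.31.

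In metabolism, 18 of 25 cholesterol synthesis and uptake genes fell and 3 rose, with a median of -0.31. Among all tested genes 33.3% were higher and 35.4% lower. Insig1, which holds the sterol sensor back, averaged 77.7 ± 3.55 CPM in TPLKO empty and 142 ± 1.19 CPM in pLENTI6 empty. Of 39 lysosomal genes 21 rose and 10 fell, with Lamp2, a membrane protein, at 0.97 and the cathepsin gene Ctsb at -0.54. The 24 NRF2 targets were mixed at 12 up and 8 down: the antioxidant genes Hmox1 and Slc7a11 rose with 1.04 and 1.38, and Nqo1 fell by 2.94, to 0.503 CPM in TPLKO empty, against 3.91 CPM in pLENTI6 empty. Of 25 YAP and TEAD targets 15 rose and 7 fell, though Ankrd1 averaged 52.2 ± 1.34 CPM in TPLKO empty and 120 ± 1.51 CPM in pLENTI6 empty.

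Of 39 glycolysis and hypoxia genes 20 fell and 7 rose, with a median of -0.24, or -0.05 with genes of mostly unique sequence only. Of 25 housekeeping genes 13 fell and 8 rose, with a median of -0.11 that turned to 0.029 after the length subtraction below. Of 14 imprinted genes 6 fell and 3 rose, of 11 germline genes 5 fell and 3 rose, of 9 alveolar and club cell genes 4 rose and 3 fell, and of 7 drug efflux transporters 3 fell and 2 rose. Of 12 squamous genes tested 6 fell and 4 rose, of 10 fibroblast genes 6 rose and 3 fell, of 7 leukocyte genes 2 fell and 0 rose, and of 6 endothelial genes 2 rose and 1 fell. These lists are small, and among all tested genes 33.3% were higher and 35.4% lower.

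Genes of cytosolic ribosomal proteins fell together, but the sizes depend on how reads were divided among like sequences. Of 78 tested, 73 were called lower in TPLKO empty and 0 higher, with a median of -0.53, and 25 were at least 2-fold lower. Of these genes 76 share at least 25% of words with another annotated gene: a median of 74.2% of a gene's 31-base words was held by no other gene, against 99.95% for collagens and 100% for immediate-early and ERK feedback genes. Rpl21 had 20.6 CPM in TPLKO empty and 374 CPM in pLENTI6 empty, a log2 change of -4.18. With the counts of the genes that share its words added, it had 762 ± 6.91 CPM in TPLKO empty and 1156 ± 54.5 CPM in pLENTI6 empty, a log2 change of -0.60. For Rps3a1 the log2 change was -3.03 alone and -0.08 with its relatives. Summed in this way, 76 of 78 ribosomal protein genes were still below 0, the median was -0.33 and none was 2-fold lower. Processed pseudogenes took between 2.95% and 2.96% of counts in TPLKO empty libraries, against 2.36% to 2.44% in pLENTI6 empty libraries.

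The same sharing touched single genes elsewhere. The symbol Chtf8 belongs to 2 gene IDs: one had a log2 change of -0.11 and was not called, and the other, with 1.98% unique words, had a log2 change of 3.49 alone and 0.25 with its relatives included. Gapdh, often used to normalise, had 0.62 alone and -0.45 with the genes that share its words, so its direction turned. Cox7c and Atp5l, subunits of respiratory complexes, had -1.61 and -1.52 alone and -0.05 and 0.11 in sum. Xlr3a, one of the genes nearly silent in TPLKO empty, had 3 counts in TPLKO empty and 2474 in pLENTI6 empty with 39.8% unique words, and stayed at -3.65 in sum. Genes with under 50% unique words made up 1277 of those tested and 447 of those called at 2-fold or more.

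Mitochondrial genes were divided by genome. Of the 13 protein genes of mitochondrial DNA, 10 were called higher in TPLKO empty and 1 lower, with a median of 0.33. Over only the 4 with mostly unique sequence the median was 0.14. The largest, mt-Co2, shares all of its words with other genes and changed from 1.70 alone to 0.25 in sum. In the nuclear genome, 46 of 75 oxidative phosphorylation genes fell and 9 rose, with a median of -0.16, and 48 of 78 mitochondrial ribosomal protein genes fell and 11 rose, with a median of -0.19. Of 18 mitochondrial chaperones and proteases 10 fell and 5 rose, with a median of -0.16, or 0.052 with genes of mostly unique sequence only.

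These last lists hold short transcripts, and change went with length across all genes. The median log2 change was -0.18 in the class of shortest transcripts and 0.18 in that of the longest. Subtracting each class's median left -0.02 for oxidative phosphorylation genes, -0.07 for mitochondrial ribosomal proteins, -0.36 for cytosolic ribosomal proteins and 0.48 for the genes of mitochondrial DNA. Without the first pLENTI6 empty library the median for cytosolic ribosomal proteins was -0.46, that for oxidative phosphorylation genes -0.12, and that for mitochondrial DNA 0.26. For collagens, immediate-early and ERK feedback genes and the ATF4 response the medians after the same subtraction were 0.97, -1.19 and 0.60. The part of transcript length in these results was not tested further.

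On chromosome 17, 62.8% of 725 tested genes were called lower in TPLKO empty and 11.9% higher, with a median log2 change of -0.34. On chromosome 19, 71.6% of 479 were lower, with a median of -0.39. The shift ran along the whole of each: all 14 blocks of 50 neighbouring genes on chromosome 17 had medians between -0.50 and -0.17, and all 9 on chromosome 19 between -0.51 and -0.22. Other chromosomes had medians between -0.15 (chromosome 5) and 0.15 (chromosome 8). Single blocks on these also stood far from 0. On chromosome 5 the lowest block was at -0.68, with 15 of 17 below 0. On chromosome 8 the highest was at 0.52, with 2 of 15 below 0. Relative to the mean of 12 libraries, the median of chromosome 19 lay between -0.24 and -0.22 in TPLKO empty libraries and between 0.14 and 0.16 in pLENTI6 empty libraries. Dusp5, Fosl1 and Nfkb2 lie on chromosome 19 and Cldn6 on chromosome 17. With each chromosome's median subtracted, the list of immediate-early and ERK feedback genes still had a median of -1.19. DNA copy number was not measured in these data.

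**Figure D4:**
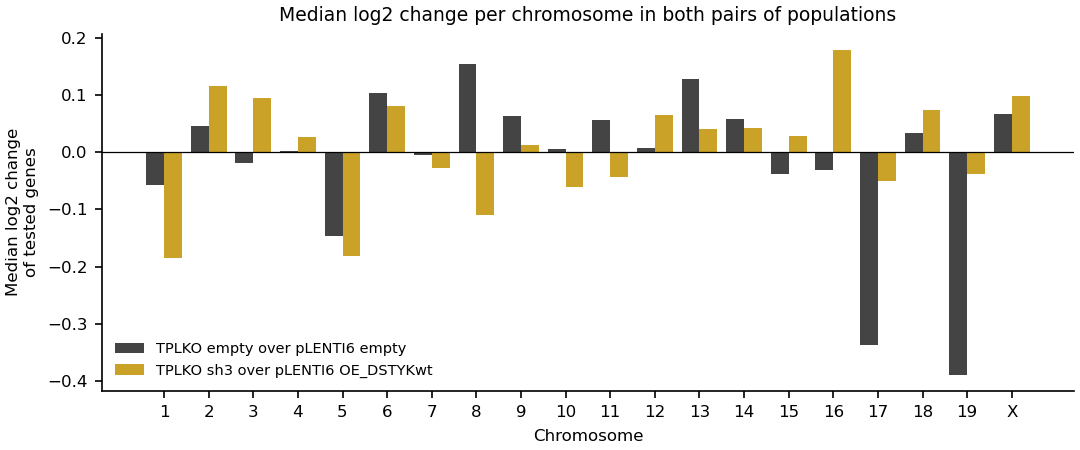
Median log2 change of tested genes on each chromosome (bars) for TPLKO empty over pLENTI6 empty and for TPLKO sh3 over pLENTI6 OE_DSTYKwt. Chromosomes 17 and 19 stand at -0.34 and -0.39 in the first pair of populations and at -0.05 and -0.04 in the second.

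The same pair of vectors also occurs in 6 libraries that the comparison above did not use: TPLKO with the sh3 construct and doxycycline (TPLKO sh3), and pLENTI6 with wild-type DSTYK (pLENTI6 OE_DSTYKwt). Vector, doxycycline, experiment and the name stem of the cells change together in these 6 libraries also. Dstyk was altered in opposite directions in these, with a log2 change of -0.51 and a mean of 26.2 CPM in TPLKO sh3 and 37.6 CPM in pLENTI6 OE_DSTYKwt, so the second pair holds that difference as well. Of 14382 genes tested 10569 were called, 73.5%, with 37.0% higher and 36.4% lower in TPLKO sh3. Among 13802 genes tested in both pairs, 6339 were called in the same direction in both, which is 66.4% of the genes called between the empty-vector populations and 62.2% of those called in the second pair. A further 1422 were called in opposite directions. Of the 1913 genes at least 2-fold different between the empty-vector populations and tested in both, 76.1% were called in the same direction, 8.21% in the opposite direction and 15.7% were not called.

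Genes that were 2-fold higher and genes that were 2-fold lower differed in this respect. Of the 828 that were higher in TPLKO empty, 87.0% were called higher in TPLKO sh3 also and 1.33% lower. Of the 1085 that were lower, 67.7% were called lower in TPLKO sh3 also and 13.5% higher. The difference between these shares was not tested.

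Collagens that were higher and immediate-early genes that were lower mostly had the same direction in the second pair. Col1a1 had a log2 change of 6.53 there and Col5a2 of 3.28, and 20 of 24 collagen genes tested in both were higher in TPLKO sh3 and 2 lower, with a median of 1.38. Of the 15 collagens called higher in TPLKO empty 14 were called higher in TPLKO sh3 and Col8a1 was called lower. The 6 called lower in TPLKO empty were all called higher in TPLKO sh3, among them Col6a1, Col11a1 and Col18a1, with -0.81 in the first pair and 1.72 in the second for Col18a1, the basement membrane chain that yields endostatin. Of 38 immediate-early and ERK feedback genes 32 were lower and 3 higher, with a median of -0.93; of the 33 that were lower in TPLKO empty, 30 were lower here also, and Dusp2 and Spred1, a phosphatase and an inhibitor of RAF activation, were higher. Krt6a, Krt7, Calcb and Rgs16 fell by 5.77, 4.50, 4.58 and 4.80. The ATF4 response did not show the same balance: 14 of 29 genes were higher and 11 lower, with a median of 0.03. Likewise 6 of 23 unfolded protein response genes were higher and 11 lower in TPLKO sh3, and Hspa5 had a log2 change of -0.34. In TPLKO sh3 libraries the median of chromosome 19 relative to the mean of 12 libraries lay between 0.03 and 0.04, and in pLENTI6 OE_DSTYKwt libraries between 0.08 and 0.10.

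**Figure D5:**
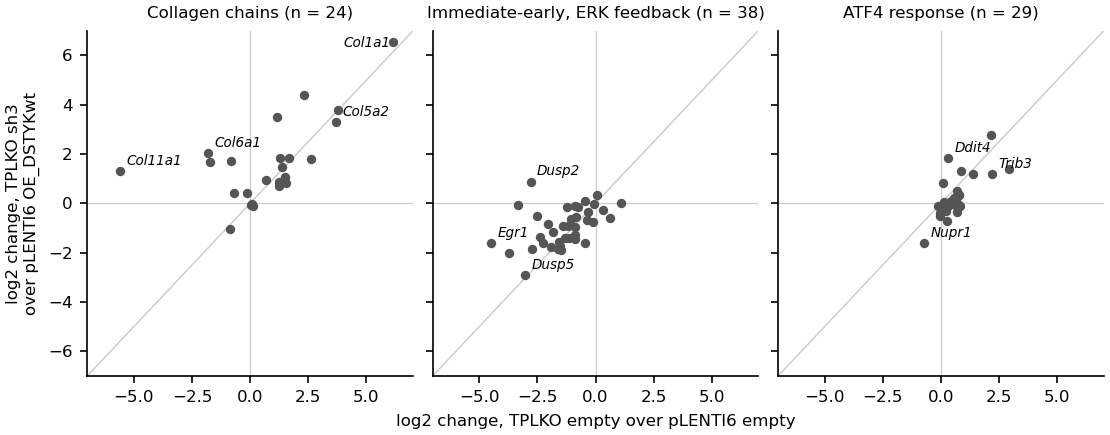
Log2 change of TPLKO empty over pLENTI6 empty (horizontal) against TPLKO sh3 over pLENTI6 OE_DSTYKwt (vertical) for the members of 3 gene lists tested in both; each point is a gene, and the diagonal marks equal changes. Col1a1 lies at 6.16 and 6.53 and Egr1 at -4.48 and -1.63, while most ATF4 response genes lie to the right of 0 and on either side of it vertically, with medians of 0.59 and 0.03.

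Of 90 genes called with at least 2-fold differences in opposite directions, 90 were lower in TPLKO empty than in pLENTI6 empty and higher in TPLKO sh3 than in pLENTI6 OE_DSTYKwt. Col6a1 and Col6a2 were among them, with -1.82 and -1.71 in the first pair and 2.05 and 1.69 in the second, as were Nqo1 and Hoxa9.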

How the data were processed

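RNA of 18 libraries was sequenced with a stranded Illumina mRNA kit for 75 bases, per the labels' protocols, which name single-end and paired-end runs without saying which applies. The tools named in the submitters' processing notes are kallisto and sleuth, with the build mm10 and no versions. The authors deposited estimated counts per transcript, which kallisto shares among transcripts that fit a read equally well; they are not normalized. Of 118489 transcripts per library 116816 matched a gene of GENCODE M21 (GRCm38); the 1673 others held between 0.515% and 0.538% of counts in the 6 libraries and were left out. Estimated counts were summed over 36047 genes and rounded. In R 4.3.3, edgeR 4.0.16 was run with TMM scaling, its default filter (minimum count of 10, total of 15) and the quasi-likelihood test with Benjamini-Hochberg adjustment, and was tested on simulated data. CPM values are scaled by TMM; TPM was computed from the estimated counts and deposited effective lengths. Alternatives used DESeq2 1.42.0 and limma 3.58.1. Shared sequence was measured as 31-base words of GENCODE transcripts; relatives are genes sharing at least 25% of the smaller gene's words. Reads carry no molecular identifiers, so counting intervals and the floor of 3 counts cover counting error only. Replicate numbers were not taken to pair the libraries, and the labels do not say whether they do.

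The members and the 38 gene lists were chosen with earlier results of these data known, so list counts are descriptions beside those of all genes. Named genes are Dstyk; the 12 largest rises and 12 largest falls that passed the test, at a log2 CPM of 3 or above on average, with named rather than provisional symbols and groups that did not overlap; the 6 most abundant genes each way that had at most 3 counts in the other group; per list, 3 members by adjusted p and 1 by size of change; and 6 genes each way that changed most in both pairs. Other list members and genes were named after their values were seen, and a few genes are not reported here.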

Additional observations from a re-analysis of the deposited data

Results flagged for a closer look

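For 30 of the genes named in the text the change between the empty-vector populations and the change of TPLKO sh3 over pLENTI6 OE_DSTYKwt were called in opposite directions, and the difference between them passed edgeR's interaction test over 12 libraries. The values that follow are that difference on the log2 scale, the first change minus the second. DSTYK was altered in the libraries of the second pair, and its part in these differences was not tested. Passing the interaction test was common: 7777 of all 14975 genes in that test did so. Of 13802 genes tested in both pairs, 1422 were called in opposite directions. The difference was 0.78 for Dstyk (adjusted p = 3.54e-08), which was higher in TPLKO empty and lower in TPLKO sh3. It was 1.62 for Lama5, 0.24 for Col8a1, 0.91 for Hspa5, 0.91 for Ddit3, 0.85 for Aars, 0.53 for Atf4, 0.59 for Fosl2, 0.91 for the lysosomal ceramidase gene Asah1 and 0.80 for Irgm1, an interferon-induced GTPase gene; these were also higher in TPLKO empty. Among genes lower in TPLKO empty and higher in TPLKO sh3, it was -10.75 for the Wnt inhibitor Wif1, -7.84 for Fahd2a, -7.73 for the interferon-induced Rsad2, -7.24 for Nqo1, -3.06 for Hoxa9, -2.50 for the secreted phosphoprotein gene Spp1 and -0.91 for the efflux pump gene Abcc1. Among collagens with this order it was -6.90 for Col11a1, -3.86 for Col6a1, -3.39 for Col6a2 and -2.52 for Col18a1. It was -3.65 for Dusp2, -0.54 for Spred1 and -2.02 for Pdgfra. Crabp1, Ly6a, Ly6c1 and Ly6e had -10.44, -10.90, -10.42 and -5.45, and Tmem176a and Tmem176b -4.42 and -4.10. Wif1, Fahd2a, Rsad2 and Col11a1 averaged 0.0605, 0.0236, 0.119 and 0.0156 CPM in TPLKO empty, where few counts bear on the size of the difference. Wif1 also averaged only 0.0079 CPM in pLENTI6 OE_DSTYKwt, which bears on its change of 6.59 in the second pair.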

How the results depend on the processing

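Genes with at least 90% unique words, the sum over genes that share words and the offset by transcript length were chosen after seeing the data; the other alternatives were planned. The count of 9675 called genes stayed between 7590 (genes of unique sequence only) and 10288 (all 12 libraries in the fit), with 9565 under a replicate block, where same-numbered libraries had correlations of deviations of 0.01, 0.03 and -0.02 and the numbers were not taken to pair them. Leaving out 1 library gave 9030 to 9666. The count at 2-fold or more was 2030, and 1273 with genes of unique sequence only, where fewer genes are tested, and 1073 in limma on log2(TPM + 1), whose pseudocount shrinks changes of low genes; leaving out 1 library gave 2083 to 2170. The block gave 2047. Dstyk stayed between 0.24 and 0.30 without 1 library and was 0.26 under the block; it was 0.18 and not called in limma on log2(TPM + 1), 0.32 with the chromosome median subtracted and 0.081 with the median of its length class subtracted. Counts for the second pair (10009 to 10487 without 1 library, 10347 under the block) and for both pairs (6045 to 6315 without 1 library, 6221 under the block) stayed within 1.5 times. Of 38 list medians 28 had 1 sign under every alternative run, and 5 changed sign with a move beyond their spread between libraries: mitochondrial chaperones and proteases, 0.052 with genes of unique sequence only, housekeeping genes, 0.057 in limma on log2(TPM + 1) and 0.029 with the length offset, G2 and M phase, up to 0.085 in limma on log2(TPM + 1), and leukocyte and endothelial markers, -1.26 and -1.18 with a filter of 1 CPM, which leaves fewer genes; the other causes were not tested. The glycolysis and hypoxia median was -0.24, and -0.05 with genes of unique sequence only. Of 154 named genes, Atp5l (0.11) and Gapdh (-0.45) changed sign with shared genes added, and Megf10 and Cyp51 lost their call in limma on log2(TPM + 1). The offsets by transcript length and by chromosome moved the size of many named values without turning their sign. No offset by chromosome was made for mitochondrial DNA, whose protein genes are the list itself.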

Other observations

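Among the 90 genes at least 2-fold lower in TPLKO empty and at least 2-fold higher in TPLKO sh3, those given here were picked after their values were seen. Ly6a, Ly6c1 and Ly6e, genes of the Ly6 family of surface proteins on chromosome 15, had log2 changes of -3.99, -5.17 and -2.25 between the empty-vector populations and of 6.92, 5.25 and 3.21 between TPLKO sh3 and pLENTI6 OE_DSTYKwt. Tmem176a and Tmem176b, both on chromosome 6, had -2.97 and -2.65 in the first pair and 1.45 and 1.45 in the second. Crabp1, a retinoic acid binding protein gene, had -3.65 in the first pair and 6.80 in the second.

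The trend with transcript length was also present in the second pair of populations, with a median log2 change of -0.11 in the class of shortest transcripts and 0.12 in the longest. Between libraries of TPLKO empty the median deviation of the class of shortest transcripts lay between -0.06 and -0.04.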
